A study of Mus musculus with 6 samples.

Results

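Sox4, Sox11 and Sox12 are the 3 genes of the SoxC group of transcription factors, and they were followed here through every cell cluster of the adult mouse olfactory bulb. They were chosen by name, as 3 of the 18560 genes of a single-cell RNA count table, and all 3 have a row in it. Cells were taken from wild-type C57BL/6NJ mice, 14 weeks old, in 6 libraries that each pooled 3 mice. Of these libraries, 2 were controls, 2 came from bulbs deprived of odor for 6 weeks by occlusion of a naris, and 2 from mice trained for 6 weeks to discriminate odors for a water reward while water deprived. The study used both sexes, and by the UMIs of Xist and Ddx3y, transcribed in female and in male cells, replicate 1 of every condition was male and replicate 2 female. The controls are described in more than one way by the study, as the open side of the occluded mice and as naive mice, while the sample labels give no manipulation for them. If they came from the open side, control and occluded libraries of the same number would share their mice. Because mice were pooled, the spread between 2 libraries of a condition does not show the spread between single mice.

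SoxC proteins bind DNA through a high-mobility-group box and activate transcription through a strong carboxy-terminal domain. Sox4 and Sox11 are known as factors of progenitors that have left or are leaving the cell cycle, where they switch on early neuronal genes such as Tubb3 and Dcx, and they act in part with POU factors on shared DNA sites. Sox12 is the third member, with a weaker activation domain. In the adult bulb, new neurons arrive from the subventricular zone as Dcx-positive neuroblasts and mature into granule cells (GC) of the deep layer or periglomerular cells (PGC) around the glomeruli. In the deposited clusters the immature neurons are called n04-Immature. The study ordered the other adult-born clusters along 2 axes of maturation. Axis A held the periglomerular clusters n02-PGC-1, n05-PGC-2 and n08-PGC-3 and the granule cell clusters n03-GC-1, n14-GC-7, n12-GC-6, n11-GC-5 and n10-GC-4. Axis B held the granule cell clusters n09-GC-3 and n07-GC-2 beside n06-Transition. A second ordering by the study, from the activity of transcription factor targets, did not fully match these axes for n09-GC-3 and n14-GC-7.

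The 3 genes lie on different chromosomes, all on the minus strand of GRCm38.p6. Sox4 spans chr13:28948919-28953699, Sox11 chr12:27334268-27342718 and Sox12 chr2:152393611-152398046. The predicted noncoding gene Gm46405 overlaps Sox4, and it has no row in the count table. Reads from the overlap were therefore counted for Sox4 or not at all, and the overlap was not examined further. The 250 bases before each start site are shown because Sox4 and Sox11 have their highest level in the same cluster and Sox12 does not stand out there. They were read from RefSeq on the gene's strand, and capitals mark the CCAAT box (on either strand, so also as ATTGG) and the octamer ATGCAAAT that POU factors bind.
Sox4: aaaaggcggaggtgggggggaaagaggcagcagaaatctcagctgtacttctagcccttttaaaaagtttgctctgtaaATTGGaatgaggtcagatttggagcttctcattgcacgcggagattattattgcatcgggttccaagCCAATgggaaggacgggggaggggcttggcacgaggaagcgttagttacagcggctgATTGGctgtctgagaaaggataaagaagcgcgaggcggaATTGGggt
Sox11: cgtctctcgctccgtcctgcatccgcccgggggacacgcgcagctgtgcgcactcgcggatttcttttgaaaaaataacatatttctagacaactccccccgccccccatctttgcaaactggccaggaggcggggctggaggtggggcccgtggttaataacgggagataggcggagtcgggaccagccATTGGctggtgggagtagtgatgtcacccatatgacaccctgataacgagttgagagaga
Sox12: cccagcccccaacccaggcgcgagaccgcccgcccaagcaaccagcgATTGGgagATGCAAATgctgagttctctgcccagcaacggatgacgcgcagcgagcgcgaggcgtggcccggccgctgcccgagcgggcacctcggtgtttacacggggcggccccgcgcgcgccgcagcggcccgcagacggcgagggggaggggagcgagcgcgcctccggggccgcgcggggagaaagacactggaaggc

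These windows are chr13:28953700-28953949, chr12:27342719-27342968 and chr2:152398047-152398296. The Sox4 window held 4 CCAAT boxes, which began at -171, -104, -47 and -8 from the start site, where -1 is the last base before it. The Sox11 window held 1, at -60, and the Sox12 window 1, at -203, with an octamer at -195 that does not overlap it. A CCAAT box was present in 33.8% and the octamer in 1.62% of 32536 promoter windows of this length. None of the 3 windows held TATAAA or the Sox motifs ACAAAG and ACAAT on either strand, which were present in 12.3%, 16.5% and 27.4% of all windows. The share of G and C was 50.8% in Sox4, 58% in Sox11 and 74.4% in Sox12, against a median of 52.4%, and the number of CG pairs was 11, 17 and 35, against a median of 6. These matches describe letters in a window and are not evidence of binding.

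The 6 libraries held between 6705 and 10570 annotated cells, 51426 in all, with 11841160 to 17065083 unique molecular identifiers (UMIs, 1 per captured molecule) and a median of 1028 to 1723.5 UMIs per cell. A further 1123 barcodes had no cluster and were left out, and 1461 barcode sequences occurred in more than 1 library. All 6705 cells whose names start with TR1 stand under TR2 in the library column of the annotation, and the reverse holds for TR2. The library column was used, since the cell numbers that the study lists for the trained libraries follow it. The label of n04-Immature was checked on 4 markers of immature neurons (Dcx, Cd24a, Dlx2 and Igfbpl1). Their summed level was 4003 ± 159 CPM there, the highest of the 40 clusters. The clusters were made from the same counts and the study itself cites Dcx for this cluster, so the check is not independent of the label. The summed markers of astrocytes stood at 466 CPM in n04-Immature against 9690 CPM in Astro1, and those of oligodendrocytes at 1032 against 43331 CPM in MyOligo. Markers of other cell types were thus detected at a low level in these cells, and no correction was made for free RNA.

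Sox4 and Sox11 were both highest in the immature neurons, at nearly the same level, and Sox12 was low in every cluster. Levels are CPM, the UMIs of the gene per 1000000 UMIs of a cluster in a library. A UMI stands for 1 molecule whatever the length of the transcript, but capture at the 3′ end may differ between genes. The clusters were made from the same counts, so the levels below are a description and were not tested. The study had already named Sox11 among the genes enriched in n04-Immature. It used the labeling of cells in the rostral migratory stream by such genes to call the cluster immature. The level of Sox11 there is thus not independent of the label. The study also stained sections for Sox11 protein. From its single-cell data it inferred high activity of Sox11 and its putative target genes in the most immature cell state, mainly n04-Immature. The table held 27723 UMIs of Sox4 in 11000 annotated cells, 16992 of Sox11 in 5458 cells and 1585 of Sox12 in 1507 cells. The highest count in a single cell was 30 for Sox4, 29 for Sox11 and 4 for Sox12.

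Sox4 in n04-Immature stood at 1985 and 2165 CPM in the control libraries, at 2669 and 2359 CPM in the naris-occluded libraries and at 2161 and 2596 CPM in the olfactory trained libraries, replicate 1 first. Its mean was 2322 ± 269 CPM (SD, n = 6). Every one of these libraries was above every library of any other cluster. Next came 3 interneuron clusters of axis A, n03-GC-1 with 791 ± 51.5 CPM, n02-PGC-1 with 719 ± 73.3 CPM and n08-PGC-3 with 629 ± 168 CPM. The steps between these 3 and to the next cluster below did not exceed the larger of the 2 SDs. The oligodendrocyte precursors (OPC), glial progenitors that also divide in the adult brain, followed with 495 ± 93.7 CPM. The remaining clusters ranged downwards to 22.8 ± 8.1 CPM in the ensheathing glia OEC1. Of the 39 steps between neighbors in the order, 2 were larger than the larger SD, the step below n04-Immature and the step below OPC.

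Outside the neurons Sox4 was highest in the glial precursors and in 2 of the 3 clusters of microglia, the resident macrophages of the brain. MicroG2 had 216 ± 23.2 CPM and MicroG1 214 ± 53.5 CPM, and in none of the 6 libraries was either below 150.7 CPM. The other microglial cluster, MicroG3, had 68.7 ± 26.2 CPM, less than Astro2 with 133 ± 27 CPM. Names are those of the deposited annotation, where MicroG1 has 790 cells, MicroG2 2260, Astro2 336 and Astro3 1780. By its cell numbers, the study's own list exchanges MicroG1 with MicroG2 and Astro2 with Astro3. The names Mes1, Mes2 and OEC2 to OEC5 differ between the 2 sources as well. The 4 immature neuron markers together reached 44.4 ± 9.1 CPM in MicroG2 and 43.8 ± 21.6 CPM in MicroG1. Sox11 was at 11.1 ± 6.6 and 12.6 ± 6.1 CPM in them. In OPC the same 4 markers summed to 125 ± 59.0 CPM.

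Sox11 in n04-Immature stood at 1963 and 2212 CPM in the control, 2073 and 2016 CPM in the naris-occluded and 2052 and 2192 CPM in the trained libraries. The lowest of these lay far above the highest library of the next cluster, n09-GC-3, with 294 CPM. The granule cell clusters n09-GC-3 and n10-GC-4 and the OPC followed in an order that was not separated by their SDs, with OPC at 144 ± 25.6 CPM. Further down, n03-GC-1 had 89.2 ± 31.5 CPM and n02-PGC-1 35.3 ± 14 CPM. The sensory neurons n01-OSNs, mature cells from the olfactory epithelium, had 32.5 ± 16.5 CPM.

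Sox12 in n04-Immature was at 52.9 and 35.9 CPM in the control, 51.3 and 48.1 CPM in the naris-occluded and 51.2 and 48.9 CPM in the trained libraries. Its mean of 48.0 ± 6.2 CPM rests on 325 UMIs. A higher mean in the mitral and tufted cell cluster n15-M/TC-1, 64.8 ± 75 CPM, came from 9 UMIs in 90 cells. The transition cells n06-Transition with 40.4 ± 12.3 CPM and the granule cells n07-GC-2 with 38.9 ± 14.3 CPM followed closely. No step between neighbors among these clusters exceeded the larger SD. The lowest level of a cluster with any UMI was 2.07 ± 1.92 CPM in MicroG2.

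**Figure D1:**
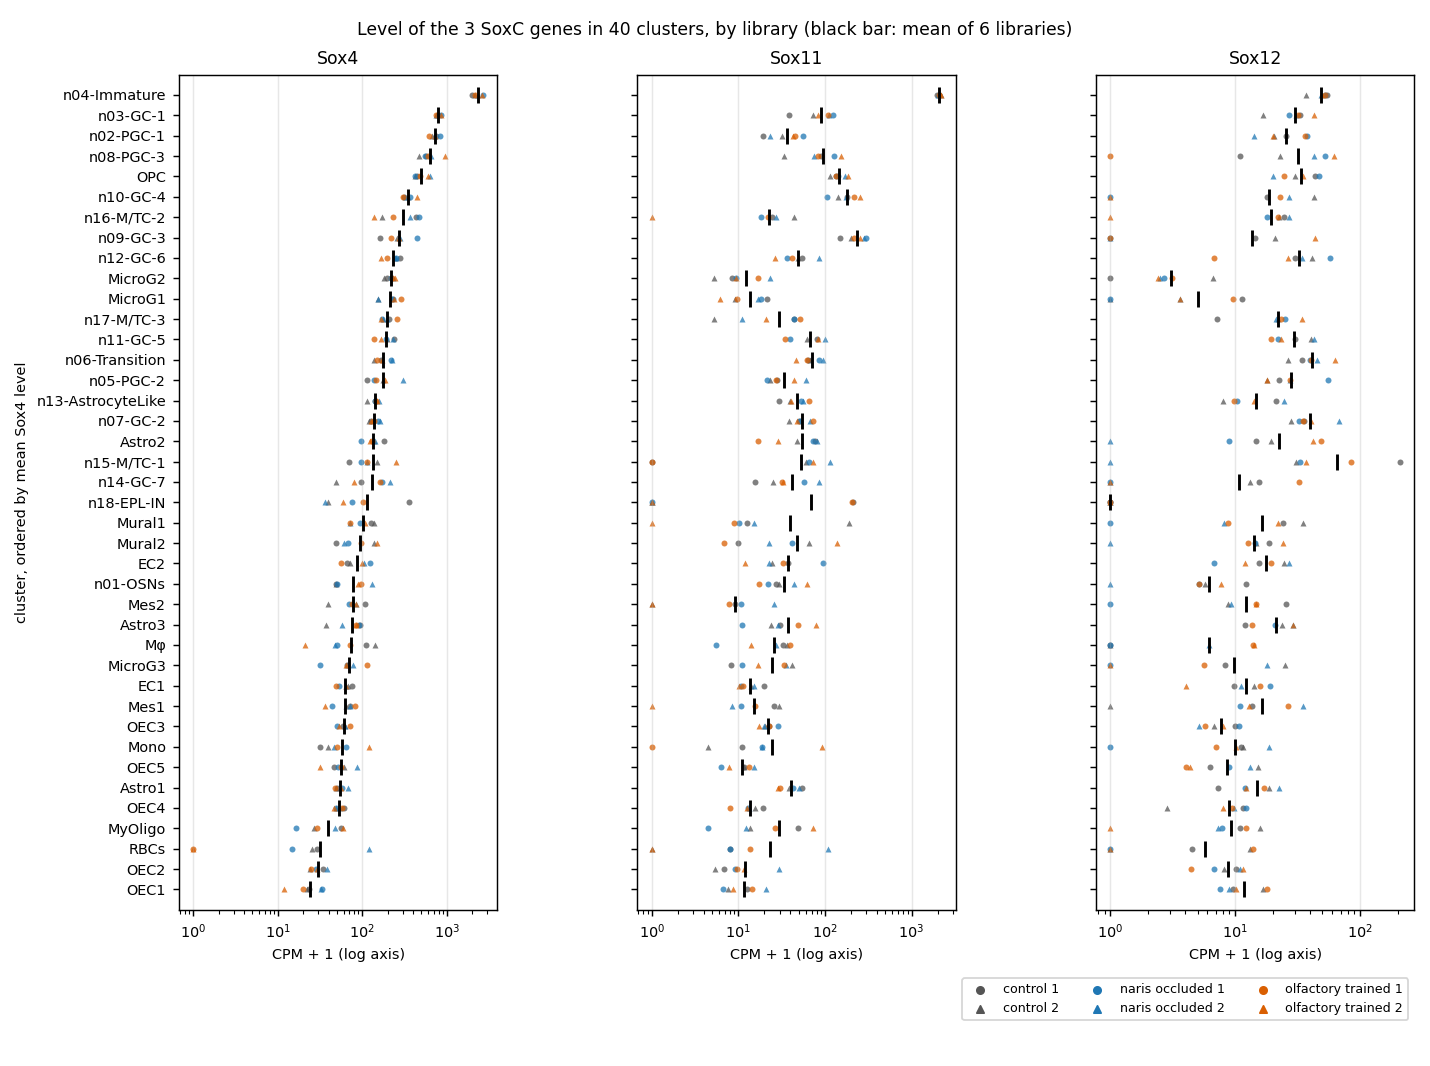
Level of Sox4, Sox11 and Sox12 in 40 clusters (18 of neurons and 22 of other cells), as CPM + 1 on a log axis, with 1 point per library (circles replicate 1, triangles replicate 2) and a black bar for the mean of 6 libraries. Clusters are in the order of Sox4. The points of n04-Immature stand clear of all others for Sox4 and Sox11, whereas those of Sox12 overlap many clusters.

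The immature neurons gave most of the Sox11 and the larger part of the Sox4, but a minor part of the Sox12. They held 7.66% of all UMIs of annotated cells but 81.4% of the Sox11 UMIs, with a range of 79.2% to 84.9% over libraries. Of the Sox4 UMIs they held 56.1%, with 49.3% to 64.8% over libraries. Another 22% of Sox4 came from the other 11 adult-born clusters and 16.3% from nonneuronal cells. Sox12 was spread differently, with 20.5% of its UMIs in n04-Immature, 32.9% in the other adult-born neurons and 34.4% in nonneuronal cells.

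Sox4 and Sox11 were each found in a large share of the immature neurons. Shares of cells with a UMI depend on depth, so each cell was thinned to 500 UMIs, which left out no cell of these clusters. After thinning, 61.4% ± 4.6 of n04-Immature cells (SD, n = 6 libraries, range 55.1% to 66.1%) had a UMI of Sox4. For Sox11 the share was 56.3% ± 1.9 (range 53.5% to 58.5%), and for Sox12 2.25% ± 0.39. Free RNA gives UMIs in cells that do not transcribe a gene. In the sensory neurons n01-OSNs, the shares after the same thinning were 3.52% ± 1.54 for Sox4, 1.90% ± 0.77 for Sox11 and 0.302% ± 0.264 for Sox12. In the ensheathing glia OEC1, with a median of 2108 UMIs, they were 1.17% ± 0.45, 0.571% ± 0.228 and 0.532% ± 0.239, so that for Sox4 and Sox11 the sensory neurons were not the lowest cells. Before thinning, when the median was 1668 UMIs in n04-Immature and 808.5 in n01-OSNs, the shares in n04-Immature were 86.3% ± 4.0, 82.6% ± 3.0 and 7.93% ± 1.25.

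In the same thinned cells, 36.9% ± 3.2 of n04-Immature cells had both Sox4 and Sox11, 24.5% ± 1.7 Sox4 alone, 19.4% ± 1.8 Sox11 alone and 19.3% ± 3.3 neither. The product of the 2 single shares was 34.6% ± 3.6. Before thinning, 75.4% of the cells had both and 6.57% neither. In n03-GC-1 the picture was one of Sox4 without Sox11, with 29.4% ± 1.7 of cells holding Sox4 alone and 1.16% ± 0.44 both. In n02-PGC-1 the shares were 27.7% ± 2.0 and 0.522% ± 0.283. In n09-GC-3 they were 9.95% ± 2.71 and 1.70% ± 0.78, and 8.24% ± 2.83 of cells held Sox11 alone.

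**Figure D2:**
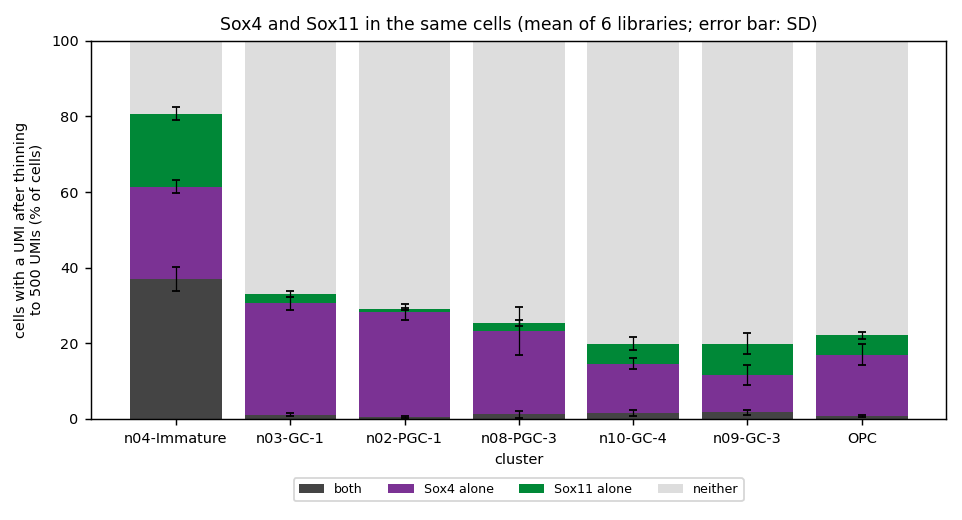
Share of cells with a UMI of both Sox4 and Sox11, of Sox4 alone, of Sox11 alone and of neither, in percent of cells after thinning to 500 UMIs. Bars are means of 6 libraries with the SD as error bars. Both genes together were found in 36.9% of n04-Immature cells and in at most 1.70% of the cells of the other clusters drawn.

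Along the axes Sox11 was lower by more than Dcx, and Sox4 was less reduced than Sox11 on both axes. The ratio to n04-Immature was formed in each library on the log2 scale, after 1 CPM had been added to each level. For Sox11 it was -4.97 ± 0.35 on axis A and -4.87 ± 0.35 on axis B (SD, n = 6). The difference between the axes was 0.11 ± 0.21, less than its SD. Sox4 stood at -2.39 ± 0.19 on axis A and at -3.88 ± 0.18 on axis B, and it was lower on axis B in 6 of 6 libraries, by 1.29 to 1.72 on the log2 scale. Dcx, a microtubule-associated protein that marks neuroblasts, stood at -1.88 ± 0.24 on axis A and at -1.41 ± 0.27 on axis B. Sox11 was below Dcx by 3.09 ± 0.21 on axis A and by 3.46 ± 0.38 on axis B, in 6 of 6 libraries each. The difference of Sox4 and Dcx was small on axis A, -0.51 ± 0.29, and large on axis B, -2.47 ± 0.29. Sox12 was the least reduced of the 3, with -0.82 ± 0.26 on axis A, lower in 6 of 6 libraries, and -0.40 ± 0.33 on axis B, lower in 5 of 6.

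Within axis A the calretinin (Calb2) clusters had the highest mean of Sox4. n03-GC-1, with the highest Calb2 of all clusters, was at -1.55 ± 0.11 and n02-PGC-1 at -1.69 ± 0.15 from n04-Immature. The calbindin (Calb1) cluster n08-PGC-3 was at -1.91 ± 0.30, not separated from n02-PGC-1 by the larger SD. In olfactory trained replicate 2 it was above both Calb2 clusters, at -1.45 against -1.60 in n03-GC-1 and -1.85 in n02-PGC-1. The dopaminergic cluster n05-PGC-2, which had the most Th (tyrosine hydroxylase), was at -3.78 ± 0.46. The granule cell clusters n10-GC-4 (-2.73 ± 0.14), n12-GC-6 (-3.34 ± 0.37), n11-GC-5 (-3.61 ± 0.37) and n14-GC-7 (-4.34 ± 0.77) were lower than n08-PGC-3 too. Of these, n12-GC-6 and n11-GC-5 lay within the range of axis B and n14-GC-7 below it, where n09-GC-3 was at -3.16 ± 0.34, n06-Transition at -3.73 ± 0.23 and n07-GC-2 at -4.09 ± 0.18. Sox11 followed another order. Its ratio was -5.94 ± 0.56 in n02-PGC-1 and -6.04 ± 0.59 in n05-PGC-2. The levels behind these ratios, 35.3 and 33.0 CPM, are close to the 32.5 CPM of n01-OSNs and above those of the lowest clusters, which ran from 8.26 CPM in Mes2 to 12.5 CPM in EC1. Sox11 was least reduced in n09-GC-3 of axis B, with -3.20 ± 0.36, and n10-GC-4 of axis A, with -3.60 ± 0.45. The 6 libraries of n09-GC-3 had 147 to 294 CPM of Sox11 and did not overlap those of n03-GC-1, with 37.9 to 124 CPM.

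The share of Sox11 among all SoxC UMIs was then compared between clusters. It was 46.9% ± 2.6 in n04-Immature and 45.4% ± 4.1 in n09-GC-3, which overlap. It was 32.2% ± 6.5 in n10-GC-4, 21.4% ± 1.1 in OPC, 9.73% ± 3.19 in n03-GC-1, 4.52% ± 1.63 in n02-PGC-1 and 4.70% ± 2.43 in MicroG2. In n09-GC-3 it rests on 197 SoxC UMIs, against 29715 in n04-Immature.

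**Figure D3:**
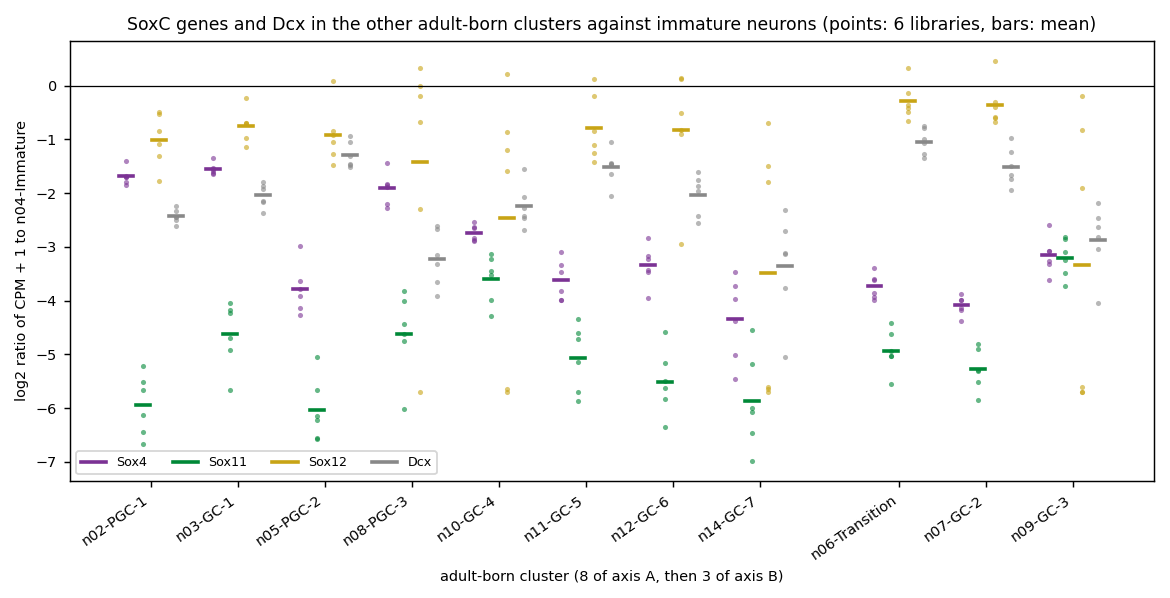
Log2 ratio of CPM + 1 in each of the 8 clusters of axis A and the 3 clusters of axis B to n04-Immature, for the SoxC genes and Dcx, with 1 point per library and a bar for the mean of 6. The bar of Sox11 lies below that of Dcx in every cluster, and Sox4 is closest to 0 in n03-GC-1 and n02-PGC-1. Points of Sox12 near the bottom are libraries with no UMI in a small cluster.

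**Figure D4:**
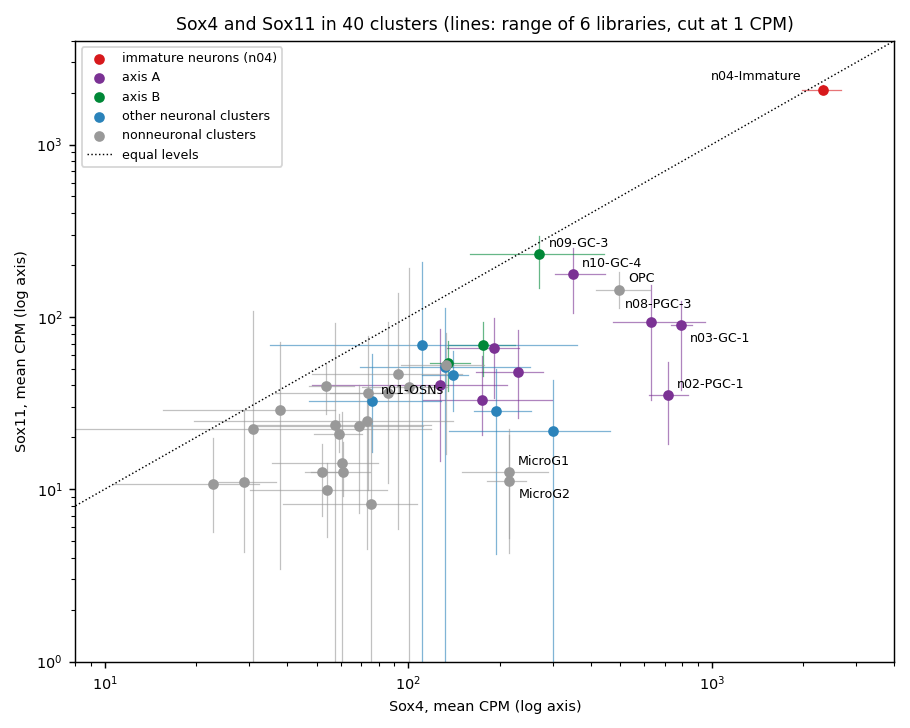
Mean level of Sox4 against that of Sox11 in 40 clusters, in CPM on log axes, with lines for the range over 6 libraries and a dotted line where both are equal. n04-Immature and n09-GC-3 lie near the line, while n02-PGC-1, n03-GC-1, n08-PGC-3 and the microglia lie below it, with more Sox4 than Sox11.

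The immature neurons were not uniform in these genes. In the clusters that the whole bulb was first divided into, 3283 of the 3910 cells of n04-Immature belong to N1, 448 to N3 and 119 to N4. N1 had 2504 ± 293 CPM of Sox4 and 2238 ± 112 CPM of Sox11. N3, whose cells had a median of 775 UMIs against 1736 in N1, had 1137 ± 189 and 1228 ± 191 CPM, and N4, with a median of 2660 UMIs, had 1212 ± 277 and 901 ± 256 CPM. Both genes were lower in N3 and in N4 than in N1 in 6 of 6 libraries. The lower depth of N3 moves with this result and the higher depth of N4 against it, and the part of depth was not tested.

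Cells of n04-Immature with a UMI of any of 12 cell division genes (Mki67, Top2a, Cdk1 and others) were compared with the rest. There were 146 of them, 17 to 36 per library. Sox11 had 2265 ± 294 CPM in them and 2072 ± 91.6 CPM in the others, a log2 ratio of 0.12 ± 0.17, which is within the spread, and was higher in 5 of 6 libraries. Sox4 had 1968 ± 506 CPM against 2348 ± 275 CPM, a log2 ratio of -0.29 ± 0.31, and was higher in 2 of 6 libraries. In the 43 cells with 2 or more such UMIs, of which a library held 4 to 10, Sox4 was at 1464 ± 312 CPM and Sox11 at 2556 ± 451 CPM. Those cells had a median of 4434 UMIs, so they were deeper than the cluster. Mki67, one of the 12 genes, was highest in the granule cells n07-GC-2 with 76.0 ± 6.2 CPM, against 21.0 ± 4.3 CPM in n04-Immature. A single UMI of these genes is thus not taken to mark a dividing cell.

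The other Sox genes had their highest levels elsewhere. Of 15 with a row, 0 were highest in n04-Immature. Sox2, Sox1 and Sox21, factors of neural stem cells, were highest in Astro2, Sox2 with 377 ± 69.4 CPM against 162 ± 9.7 CPM in n04-Immature. Sox9 was highest in Astro1 with 279 ± 18.7 CPM. Sox10, Sox8, Sox6 and Sox3 were highest in OPC, Sox10 with 412 ± 31.2 CPM against 6.93 ± 2.48 CPM in n04-Immature. Sox17, Sox18, Sox7 and Sox13 were highest in the endothelial cluster EC1, Sox17 with 418 ± 54.1 CPM. Sox5 was highest in n03-GC-1, the cluster that is second for Sox4, with 219 ± 37.3 CPM.

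The POU factors that can act with SoxC proteins were present at lower levels. Pou3f4 with 96.2 ± 13.6 CPM and the ubiquitous Pou2f1 with 88.3 ± 3.9 CPM were highest in n04-Immature. Pou3f2 had 105 ± 6.5 CPM there, second to Astro2, and Pou3f3 80.9 ± 7.1 CPM. Pou3f1 was nearly absent from it, with 1.80 ± 1.82 CPM. Of 10 genes linked to SoxC factors in neuronal differentiation, 4 were highest in n04-Immature. These were the tubulin Tubb3 with 1777 ± 161 CPM, the tubulin-binding stathmins Stmn1 with 4014 ± 141 CPM and Stmn2 with 1583 ± 107 CPM, and Dcx with 907 ± 53.5 CPM. Map2, a protein of dendrites, was highest in n09-GC-3, and Tead2, a target in neural progenitors, reached 2.24 ± 1.10 CPM in n04-Immature. The proneural factor Neurod1 was at 0.969 ± 0.968 CPM. Of 20 immature neuron genes 15, and of 12 mature neuron genes 0, were highest in n04-Immature. Tubb3, Stmn1, Stmn2 and Dcx, the 4 SoxC-linked genes highest there, are also among the immature neuron genes, so these lists are not independent.

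The genes whose pattern was most like that of each member were taken by Pearson's r of log2(mean CPM + 1) over 40 clusters, among genes with at least 50 CPM in 1 cluster. The clusters share libraries and differ in depth, so r is a description. For Sox11 they included Tubb2b (0.81), Hmgb3 (0.80), Mycn (0.80) and Runx1t1 (0.78), a tubulin, a chromatin protein and regulators of transcription. For Sox4 they were Gm26735 (0.87), Med22 (0.85), Evl (0.81), Tbpl1 (0.80) and Pafah1b3 (0.80). All of those named for Sox11 and Sox4 were highest in n04-Immature. For Sox12 they were Vprbp (0.86), Smarca4 (0.85), Itfg2 (0.85), Cdc23 (0.83) and D130017N08Rik (0.83), of which 1, the chromatin remodeler Smarca4, was highest in n04-Immature. Between members r was 0.73 for Sox4 and Sox11, 0.48 for Sox4 and Sox12 and 0.46 for Sox11 and Sox12. The order of the pairs was not the same in both kinds of cells. Over the 18 neuronal clusters r was 0.66, 0.42 and 0.18 for these pairs, and over the 22 nonneuronal clusters 0.48, 0.18 and 0.64. All values of r with Sox12, also those of the genes most like it, rest on low counts. It had 0 UMIs in n18-EPL-IN, 3 in RBCs, 5 in Mφ and 9 in n15-M/TC-1, its highest cluster.

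The conditions were compared to ask whether odor deprivation or training changes the SoxC genes in new neurons. In n04-Immature Sox11 was nearly the same in all conditions, and Sox4 was higher in both naris-occluded libraries, 2669 and 2359 CPM, than in both control libraries, 1985 and 2165 CPM, while the trained libraries overlapped both. Both occluded libraries were above both controls in 18.7% of all genes with at least 15 UMIs in this cluster. None of these differences passed the test. With edgeR's quasi-likelihood test on summed counts of all 6 libraries, Sox4 differed between naris occluded and control by 0.25 ± 0.11 on the log2 scale (SE, adjusted p = 1.00, 0.0395 unadjusted). Sox11 differed by -0.05 ± 0.11 and Sox12 by 0.10 ± 0.22. For trained against control the log2 differences were 0.19 ± 0.11 for Sox4, 0.02 ± 0.11 for Sox11 and 0.13 ± 0.22 for Sox12. That of Sox4 was 0.060 without olfactory trained replicate 2, 0.12 without control replicate 1 and 0.31 without olfactory trained replicate 1. For trained against naris occluded they were -0.06 ± 0.11, 0.07 ± 0.11 and 0.03 ± 0.21. Of the 9 tests 0 passed an adjusted p of 0.05 by edgeR and 1 had an unadjusted p under 0.05, and DESeq2 called 0 with 0 under it. Few genes of any kind passed. Over all 9312 genes tested, 0.107% were called for naris occluded against control, 0% for trained against control and 0.0107% for trained against naris occluded. Both treatments were set against the same 2 control libraries. An exact permutation test of 2 libraries against 2 cannot give a p below 0.333.

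In all adult-born neurons together, the 3 genes were higher in both naris-occluded libraries than in both control libraries. Sox4 stood at 763 and 765 CPM in the control, 1059 and 1065 CPM in the occluded and 729 and 1059 CPM in the trained libraries. Sox11 stood at 533 and 570, 644 and 728, and 539 and 767 CPM in the same order. Sox12 was at 34.4 and 28.2, 36.2 and 39.8, and 33.5 and 38.4 CPM. The control and occluded libraries did not overlap for any of the 3, and the trained libraries overlapped the others. Of all genes with at least 15 UMIs in these cells, 23.3% were likewise higher in both occluded than in both control libraries. The share of n04-Immature among adult-born cells moved with these values. It was 22.5% and 19.3% in the control, 24.1% and 32.1% in the occluded and 20.9% and 24.7% in the trained libraries, and its part in the result was not tested. By edgeR, Sox4 differed between occluded and control by 0.44 ± 0.14 (adjusted p = 0.460, unadjusted 0.00747), Sox11 by 0.28 ± 0.15 (adjusted p = 0.751) and Sox12 by 0.23 ± 0.16 (adjusted p = 0.827). Sox11 differed by 0.17 without naris occluded replicate 2, and Sox12 by 0.10 and 0.40 without control replicate 2 and 1 and by 0.14 without naris occluded replicate 2. For trained against control the differences were 0.22 ± 0.14, 0.24 ± 0.15 and 0.18 ± 0.16, and for trained against occluded -0.22 ± 0.14, -0.04 ± 0.15 and -0.05 ± 0.15. With a library left out, that of trained and control ranged from -0.049 to 0.44 for Sox4 and from -0.015 to 0.45 for Sox11. Of these 9 tests 0 passed by edgeR, with 1 at an unadjusted p under 0.05, and DESeq2 called 0 with 1 under it. Of 12698 genes tested, 0.0788%, 0.0551% and 1.59% were called in the 3 comparisons.

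In the other 11 adult-born clusters together, Sox11 was higher in the occluded libraries, 72.3 and 96.2 CPM, than in the control libraries, 55.8 and 53.6 CPM, and the trained libraries lay between, with 62.6 and 69.2 CPM. Sox4 was at 414 and 429 CPM in the occluded, 356 and 324 CPM in the control and 278 and 306 CPM in the trained libraries. In these cells 23% of genes with at least 15 UMIs were higher in both occluded than in both control libraries. The share of n03-GC-1, which is rich in Sox4, moved with these levels. It was 13.9% and 10.9% of these cells in the control, 20.4% and 29.5% in the occluded and 10.8% and 8.12% in the trained libraries. Without n03-GC-1, Sox4 was at 283 and 261 CPM in the control, 296 and 307 CPM in the occluded and 217 and 248 CPM in the trained libraries, and Sox11 at 58.9 and 50.8, 58.3 and 91.2, and 56.5 and 67.7 CPM, so that Sox11 then overlapped between control and occluded libraries. The effect of occlusion on Sox11 was lower in n04-Immature than in these clusters by 0.60 ± 0.17 on the log2 scale. This difference had an unadjusted p of 0.000317 and an adjusted p of 0.230 in edgeR with the library as a block, so it did not pass. Over 10 alternatives it ranged from -0.82 ± 0.18 without naris occluded replicate 1 to -0.39 ± 0.19 without naris occluded replicate 2. Without n03-GC-1, an alternative chosen after seeing the data, it was -0.42 ± 0.18 (adjusted p = 1). The effect of training on Sox4 was higher in n04-Immature by 0.43 ± 0.14 (adjusted p = 0.526). Of 11596 genes 0.069% were called for the difference under occlusion and 0.0172% under training, and of the 6 tests of members 0. In the sensory neurons n01-OSNs, Sox11 was at 26.0 and 28.4 CPM in the control, 20.7 and 42.6 CPM in the occluded and 16.5 and 60.8 CPM in the trained libraries. These levels come from 35 UMIs in all.

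**Figure D5:**
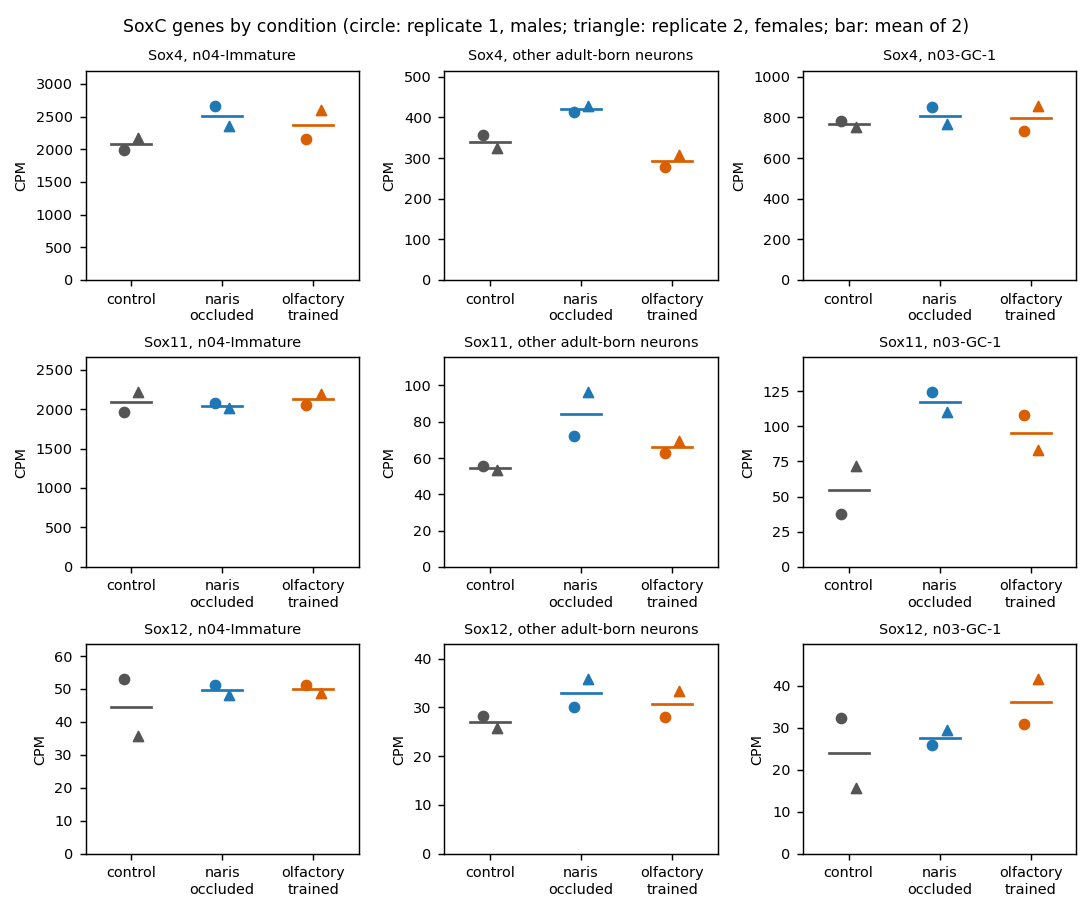
Level of each SoxC gene in CPM by condition, in n04-Immature, in the other 11 adult-born clusters together and in n03-GC-1, with circles for replicate 1, triangles for replicate 2 and a bar for their mean. In n04-Immature the Sox11 points of the 3 conditions overlap. In n03-GC-1 the 2 control points of Sox11, 37.9 and 72.0 CPM, lie below the 2 occluded points and also below the 2 trained points.

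In single clusters the lowest unadjusted p was that of Sox11 in n03-GC-1. It was at 37.9 and 72.0 CPM in the control, 124 and 110 CPM in the occluded and 108 and 83.1 CPM in the trained libraries. Both occluded libraries were thus above both controls, and so were both trained libraries. For trained against control the log2 difference was 0.91 ± 0.31 (edgeR, adjusted p = 0.761), and for trained against occluded -0.24 ± 0.25 (adjusted p = 0.902). The share of all genes with both trained libraries above both controls was not computed. Of all genes of this cluster with at least 15 UMIs, 19.9% were higher in both occluded than in both control libraries. The log2 difference of occluded and control was 1.15 ± 0.27 (edgeR, adjusted p = 0.110, unadjusted 0.000141). It passed in 3 of 13 alternatives, the fit with the replicate block (adjusted p = 0.0112), that without a filter on low counts (0.0147) and that without naris occluded replicate 2 (0.0338), and its adjusted p ranged up to 1.00. Without control replicate 1 the difference was 0.66 ± 0.32. The share of all genes called under these alternatives was not set beside the passes. Sox4 in the same cluster, with 782 and 751, 849 and 768, and 735 and 858 CPM, overlapped between the conditions. The 262 UMIs of Sox11 in n03-GC-1 are few beside its 2224 UMIs of Sox4. The level of Sox11 in n01-OSNs given above was above both controls in 1 of the 2 occluded libraries. It rests on 35 UMIs in all 6 libraries, and nothing about n03-GC-1 is concluded from it.

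In the myelinating oligodendrocytes (MyOligo), Sox11 was at 48.1 and 12.7 CPM in the control, 3.46 and 11.1 CPM in the occluded and 25.3 and 71.3 CPM in the trained libraries, from 79 UMIs in all 6. Control replicate 2 was only just above the higher occluded library. The log2 difference of trained and occluded was 2.65 ± 0.62 (edgeR, adjusted p = 0.0901). It passed in 7 of 13 alternatives, and the adjusted p ranged from 2.3e-06 to 0.947. Among these were the fits with the replicate block (0.0275) and without control replicate 1 (0.0198), control replicate 2 (0.00405), naris occluded replicate 1 (0.0439), naris occluded replicate 2 (0.000496) and olfactory trained replicate 1, which gave the lowest value. Without olfactory trained replicate 2 the log2 difference was 1.73 ± 0.75 (adjusted p = 0.442), and without naris occluded replicate 2 it was 3.72 ± 0.75. For occluded against control the log2 difference in MyOligo was -2.06 ± 0.63 (adjusted p = 1.00), and it passed in 4 of 12 alternatives, with adjusted p from 0.0204 to 1.00. It was -0.76 ± 0.89 without control replicate 1, -1.48 ± 0.57 without naris occluded replicate 1 and -3.14 ± 0.78 without naris occluded replicate 2. For MyOligo too, the share of all genes called under the alternatives was not set beside the passes. Over the 37 clusters beside n04-Immature with at least 10 cells in every library, 186 tests of members could be made in 34 clusters, 102 of Sox4, 57 of Sox11 and 27 of Sox12. Of these 0 passed by edgeR and 21 had an unadjusted p under 0.05, 11 of Sox4, 10 of Sox11 and 0 of Sox12. The 3 comparisons of a gene share libraries, so these tests are not independent. The share of all genes under this unadjusted p was not set beside the 21, so they are not read as a result about the members. DESeq2 called 0 of 182, with 6 under an unadjusted 0.05. Of all genes of these clusters 0.0658% were called for occluded against control, 0.0984% for trained against control and 0.184% for trained against occluded.

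The genes linked to SoxC factors and the immature neuron genes did not pass in n04-Immature either. Of 8 SoxC-linked genes tested, 0 were called in any of the 3 comparisons, and their median log2 difference of occluded and control was 0.03, against 0.00 over all genes. Of 20 immature neuron genes 0 were called, with a median of 0.03. In all adult-born neurons the medians for occluded against control were 0.22 for the SoxC-linked and 0.23 for the immature neuron genes. The median over all genes there was -0.0014, and 0 genes of either list were called. Both lists hold Tubb3, Dcx, Stmn1 and Stmn2, so their medians are not independent. Of 10 cell division genes tested in n04-Immature, 4 were called lower in the occluded than in the control libraries, where 0.107% of 9312 genes were called. The median over the 10 was -2.46. Ube2c, a ubiquitin-conjugating enzyme of mitosis, went from 64.5 to 7.25 CPM (log2 difference -3.06 ± 0.37, edgeR adjusted p = 0.000821). Cenpf, Top2a and Ccnb1 differed by -2.54 ± 0.34, -2.30 ± 0.39 and -3.37 ± 0.58. For trained against control 0 of the 10 were called, with a median of -0.79. The trained libraries had a mean of 29.2 CPM of Ube2c, and it differed from the control by -1.13 ± 0.30 (edgeR adjusted p = 0.921). In all adult-born neurons 1 of 11 cell division genes, Ube2c, was called for occluded against control. The lists were fitted with edgeR's main settings alone, so no alternative was run for these calls, which rest on 2 libraries per condition. The counts of the division genes are low, and the 146 cells with a UMI of a division gene held 901 of the 13837 Sox11 UMIs of n04-Immature. Only 43 cells of n04-Immature had 2 or more UMIs of division genes, 4 to 10 per library, so few cells may carry the 4 calls. The calls share these cells and libraries and are not independent of each other. Whether the number of dividing cells differed between conditions was not tested.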

How the data were processed

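The deposited counts are UMIs per gene and cell (10x 3′ chemistry), which the authors made with Cell Ranger 2.0.0 and clustered with Seurat 2.2.1 on the genome build mm10, per the submitters' processing notes. The fraction of mitochondrial UMIs per cell was deposited as well and was used only as a filter in an alternative. Clusters and libraries were taken from the deposited annotation, with 18 neuronal clusters of the second annotation and 22 nonneuronal clusters of the first. Doublets were not called again. Members and gene lists were chosen with earlier results of these data known.

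Counts were summed per cluster and library with Python 3.11.15 (numpy 2.4.6, scipy 1.17.1, pandas 2.3.3), and figures were drawn with matplotlib 3.10.9. Conditions were compared with edgeR 4.0.16 (limma 3.58.1) in R 4.3.3 by the quasi-likelihood test with TMM factors, filterByExpr and Benjamini-Hochberg adjustment over all genes at 0.05, two-sided, in clusters with at least 10 cells per library. The scripts were tested on simulated data. Alternatives were DESeq2 1.42.0, other size factors, no filter on low counts, only the groups compared, cells with at least 1000 UMIs, cells under 20% mitochondrial UMIs, a replicate block and leaving out each library. Named genes are the members, 6 lists (other Sox, SoxC-linked, POU, immature neuron, cell division and mature neuron genes) and the 5 genes most correlated with each member, of which 1 is not reported here. Depths are 11841160 to 17065083 UMIs per library. SDs are over the 6 libraries. Sequences are from RefSeq on GRCm38.p6.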

Additional observations from a re-analysis of the deposited data

Results flagged for a closer look

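SoxC UMIs were also found in barcodes that no comparison used. The 1123 barcodes without a cluster held 247 CPM of Sox4, 122 CPM of Sox11 and 19.9 CPM of Sox12, where 3 counts correspond to 0.993 CPM. The 755 neurons that the second annotation left out held 320 CPM of Sox4, 214 CPM of Sox11 and 48.4 CPM of Sox12, where 3 counts correspond to 1.24 CPM. Among these neurons were 660 cells of the whole-bulb cluster N11. They held 195 CPM of Sox4, 107 CPM of Sox11 and 49.1 CPM of Sox12, where 3 counts correspond to 1.40 CPM. Another 61 were cells of the whole-bulb cluster N2, with a median of 3462 UMIs. They held 1342 CPM of Sox4, 1046 CPM of Sox11 and 34.9 CPM of Sox12, where 3 counts correspond to 13.1 CPM. These limits cover counting error only.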

How the results depend on the processing

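With 2 libraries per condition, small differences between conditions could not be resolved. In n04-Immature and in all adult-born neurons 0 of 9 tests each passed under any of the 13 alternatives. Of their values under alternatives, 218 kept their direction and 16 reversed, and for the difference between n04-Immature and the other adult-born neurons 47 kept it, 12 reversed and 1 newly passed. When each library was left out in turn, the log2 difference in n04-Immature of occluded and control ranged from -0.15 to 0.044 for Sox11 and from -0.11 to 0.43 for Sox12. That of trained and control ranged from 0.060 to 0.31 for Sox4, from -0.075 to 0.12 for Sox11 and from -0.078 to 0.46 for Sox12, and that of trained and occluded from -0.19 to 0.060 for Sox4, from 0.030 to 0.11 for Sox11 and from -0.0093 to 0.068 for Sox12. In all adult-born neurons, that of occluded and control ranged from 0.17 to 0.38 for Sox11 and from 0.10 to 0.40 for Sox12, and that of trained and control from -0.049 to 0.44 for Sox4, from -0.015 to 0.45 for Sox11 and from 0.053 to 0.35 for Sox12. That of trained and occluded ranged from -0.49 to 0.0018 for Sox4, from -0.30 to 0.16 for Sox11 and from -0.14 to 0.033 for Sox12. For Sox11 it was 0.13 in cells with at least 1000 UMIs and 0.011 in cells under 20% mitochondrial UMIs. The difference under occlusion ranged from -0.15 to 0.14 for Sox4, from -0.82 to -0.39 for Sox11 and from -0.30 to 0.13 for Sox12, and under training from 0.28 to 0.57 for Sox4, from -0.36 to -0.093 for Sox11 and from -0.16 to 0.24 for Sox12. For Sox4 under occlusion it was 0.0096 without a filter on low counts and 0.057 in cells with at least 1000 UMIs, and for Sox12 under training 0.28 in those cells. With n03-GC-1 left out of the other adult-born neurons these became 0.15 and 0.022. The cause of these changes was not tested.

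In the other clusters the number of tests that passed was 0, but 3 without a filter and 2 with the replicate block. The share of all genes called under the alternatives was not set beside these counts, so they are not read as a result about the members. By Xist and Ddx3y the replicate number follows the sex of the pool in every condition, so a replicate block removes sex. Beyond sex the numbers were not shown to pair the libraries: deviations of libraries with the same number correlated by 0.0356 to 0.105 in n04-Immature and by 0.0934 to 0.139 in all adult-born neurons, without sex-linked genes. With the replicate block 0 of 9 tests passed in each of these, and Sox11 in n03-GC-1 (occluded against control, adjusted p = 0.0112) and in MyOligo (trained against occluded, 0.0275) passed. Sox4 in the macrophages Mφ passed for trained against control without olfactory trained replicate 1 (edgeR, adjusted p = 0.0226). The level of Sox11 in n04-Immature was 1930 CPM as a mean over single cells and 2231 CPM in the whole-bulb cluster N1. Shares of cells changed with the thinning, to 85.0%, 81.3% and 4.72% for Sox4, Sox11 and Sox12 at 1000 UMIs, where 853 shallower cells were left out, and to 86.3%, 82.6% and 7.93% without thinning.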
